A study of Rattus norvegicus with 8 samples.

Results

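Immediate early genes switch on within minutes of a stimulus, without new protein synthesis, and their transcripts are short-lived. The set described here has 9 genes, Fos, Fosb, Jun, Junb, Jund, Egr1, Egr3, Nr4a1 and Arc. Jund is counted with its family, though it is held at a steady level in most tissues rather than sharply induced. Its members were taken by symbol, and every polyadenylation site row carrying one of these symbols was summed per gene. The table listed 4 of the 9 genes, Fos with 1 site, Jun with 2, Jund with 4 and Egr1 with 1, which together made 8 of 73922 sites and 4 of 12239 genes. Fosb, Junb, Egr3, Nr4a1 and Arc had no row. No listed site had fewer than 30 reads over the 8 libraries, so a weak site of these genes would not appear, and no level can be given for them.

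Hypothalamus was taken from 8 Long-Evans rats, all adult males, and sequenced by WTTS-seq, a method that reads the 3′ ends of polyadenylated RNA. The diet-induced obesity group (4 rats) ate a high fat diet with 1.71 kcal/g from fat ad libitum, and the control group (4 rats) ate standard rodent chow with 0.51 kcal/g from fat. Brains were collected from all rats after 36 days of diet exposure. The time between the last meal or handling and tissue collection was not given in the sources used here, and neither were body weights. Because WTTS-seq counts 1 end per transcript, levels can be set side by side between genes without a correction for length. Gene levels are in CPM, the reads of a gene scaled to the TMM-adjusted library total of reads at sites with a gene. Levels of single sites are in CPM of the TMM-adjusted total over all sites.

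Libraries held 1417531 to 1957726 reads, and a single read was worth 0.511 to 0.705 CPM at that depth. Of 15 hypothalamic neuron markers 12 were listed. Their summed level was 1248 to 1663 CPM in control and 1018 to 1272 CPM in obesity. Npy, Ghrh and Nr5a1 were the hypothalamic markers without a row. Of 7 markers of cortical and hippocampal excitatory neurons 2 were listed (46.5 to 90.01 CPM in control and 52.2 to 136.6 CPM in obesity). All 5 thalamus markers were listed, summing to 149.08 to 242.64 CPM in control and 97.98 to 258.98 CPM in obesity. All 7 oligodendrocyte markers were listed, summing to 17054.9 to 21823.7 CPM in control and 13186.9 to 20578 CPM in obesity. Each of these 7 had a negative log2 difference of obesity over control, as had 5 of 6 astrocyte markers. No gene of these lists passed an adjusted p of 0.1 (edgeR). Anterior pituitary markers (3 of 6 listed) were highest in obesity library 2 at 123.9 CPM, and the single listed choroid plexus marker was highest in obesity library 4 at 95.2 CPM. The part of any of these cell types in the results on immediate early genes was not tested. In whole tissue, fewer cells of a type and less RNA per cell cannot be told apart.

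The proteins of these genes are mostly transcription factors. Fos proteins pair with Jun proteins through leucine zippers to form AP-1, and the Jun proteins can also pair among themselves. Egr1 and Egr3 are zinc finger factors, Nr4a1 is an orphan nuclear receptor, and Arc is a cytoskeleton-associated protein of dendrites that acts on glutamate receptor trafficking. In the hypothalamus, Fos is widely used as a marker of neurons recently activated by feeding, fasting, osmotic challenge or stress. Calcium and cAMP signals act on such promoters through CREB at the cAMP response element (CRE), and MAP kinase signals act through SRF and its Elk partners at the CArG box.

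RefSeq promoters of the GRCr8 rat assembly, spanning 250 bases before to 50 after the transcription start, were found for 5 of the 9 genes (Fosb, Junb, Jund, Egr1 and Nr4a1). The promoters of Jund and Egr1, the listed genes among these, are printed to show the elements through which such genes are known to be switched on. Capitals mark the CArG boxes and the CRE letters TGACGTCA or the core TGACG, on either strand.
Egr1, chr18:26736828-26737127, plus strand: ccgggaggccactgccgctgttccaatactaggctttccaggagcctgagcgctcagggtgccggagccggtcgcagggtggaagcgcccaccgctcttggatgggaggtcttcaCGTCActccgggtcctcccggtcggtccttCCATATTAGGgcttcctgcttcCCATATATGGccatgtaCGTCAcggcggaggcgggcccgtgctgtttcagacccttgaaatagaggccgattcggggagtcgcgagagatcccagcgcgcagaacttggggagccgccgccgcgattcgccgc
Jund, chr16:18769722-18770021, minus strand: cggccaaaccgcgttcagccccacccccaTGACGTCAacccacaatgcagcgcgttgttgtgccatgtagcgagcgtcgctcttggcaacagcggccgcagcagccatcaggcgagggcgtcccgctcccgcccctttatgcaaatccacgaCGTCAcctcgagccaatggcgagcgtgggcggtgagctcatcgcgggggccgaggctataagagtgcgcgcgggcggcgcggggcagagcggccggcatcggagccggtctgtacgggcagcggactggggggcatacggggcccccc
The Egr1 window held 2 CArG boxes, at -105 and -83 from the start, and CRE cores at -135 and -66. The Jund window held the full CRE at -221, which contains the core on both strands, and a further core at -98, with no CArG box. Among all 33469 promoters of this length, 1.64% held a CArG box, 1.83% the full CRE and 21.2% the core. Of the genes without a row in the table, Nr4a1 had CRE cores at -246, -226, -82 and -53, and Junb had one at -155. The letters are a description of these windows, and no measurement here bears on their use.

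Fos, a partner of Jun proteins in AP-1, had 1 site, on chromosome 6 (plus strand, Rnor_6.0 109303198 to 109303226). Control libraries 1 to 4 held 76, 37, 30 and 62 Fos reads, whereas obesity libraries 1 to 4 held 87, 68, 212 and 115. In CPM these were 53.7, 23.9, 23.5 and 46.1 against 64.6, 54.0, 120.1 and 76.0. Every obesity library lay above every control library on the CPM scale, but only just, since control 1 and obesity 2 differed by less than the worth of a read, and in raw reads these same libraries were in the opposite order. A full separation with obesity higher was seen for 226 of 12239 genes (1.85%).

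The mean level of Fos was 36.8 ± 15.5 CPM in control and 78.7 ± 29.0 CPM in obesity (SD, n = 4 each), a difference of 1.10 on the log2 scale (SE 0.34). Between libraries carrying the same number in both groups, obesity over control was 1.20, 2.26, 5.11 and 1.65, so it was higher in 4 of 4 pairs, as in 9.23% of all genes. The log2 difference was as large or larger in 4.06% of genes. The unadjusted p was 0.00459 and the adjusted p 0.905 (edgeR quasi-likelihood F test with Benjamini-Hochberg adjustment over all genes). Without a block for library number, 0 of 12239 genes (0%) passed an adjusted p of 0.1, while 646 had an unadjusted p under 0.05 and the DESeq2 Wald test called 3. Genes higher in obesity at an unadjusted p under 0.05, as Fos was, made up 2.76% of all genes. By p, Fos stood at rank 41.

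With the library number as a replicate block, the unadjusted p for Fos was 0.000793 and its adjusted p 0.152, still above the threshold, where 15 of 12239 genes passed (0.123%). In that fit 5.02% of genes were higher at an unadjusted p under 0.05, and Fos ranked 64. A DESeq2 Wald test with the same block, added after seeing the data, gave Fos an adjusted p of 0.0621. That test was the more permissive, calling 147 of the 3222 genes to which it gave an adjusted p (4.56%). Leaving out both libraries numbered 2 also took Fos under the threshold with the block (adjusted p = 0.0606, edgeR), but there 567 of 12239 genes passed (4.63%), and the unadjusted p of Fos, 0.00181, was larger than with all libraries. By contrast, leaving out both numbered 3, the pair with the highest obesity value, gave Fos a log2 difference of 0.71 and an adjusted p of 0.663. Without both numbered 1 it was 1.39 (adjusted p = 0.102, edgeR), where 1 gene passed. Without both numbered 4 it was 1.24 (adjusted p = 0.492, edgeR), where 0 genes passed.

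Egr1, a zinc finger factor that responds to the same calcium and growth factor signals, had 1 site on chromosome 18 (plus strand, Rnor_6.0 27661039 to 27661049). It was close to the limit of detection, with 3, 5, 2 and 0 reads in control 1 to 4 and 12, 7, 9 and 2 in obesity 1 to 4. In both groups library 4 was the lowest, and the groups overlapped because obesity 4 lay within the control range. Its level was 1.73 ± 1.34 CPM in control and 5.22 ± 3.10 CPM in obesity (SD, n = 4 each). The log2 difference of 1.53 carried an SE of 1.04, and the adjusted p was 0.926 without and 0.620 with the block (edgeR). Egr1 was higher in obesity in 4 of 4 numbered pairs, like Fos, but its 40 reads in all allow no firm statement on size.

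**Figure D1:**
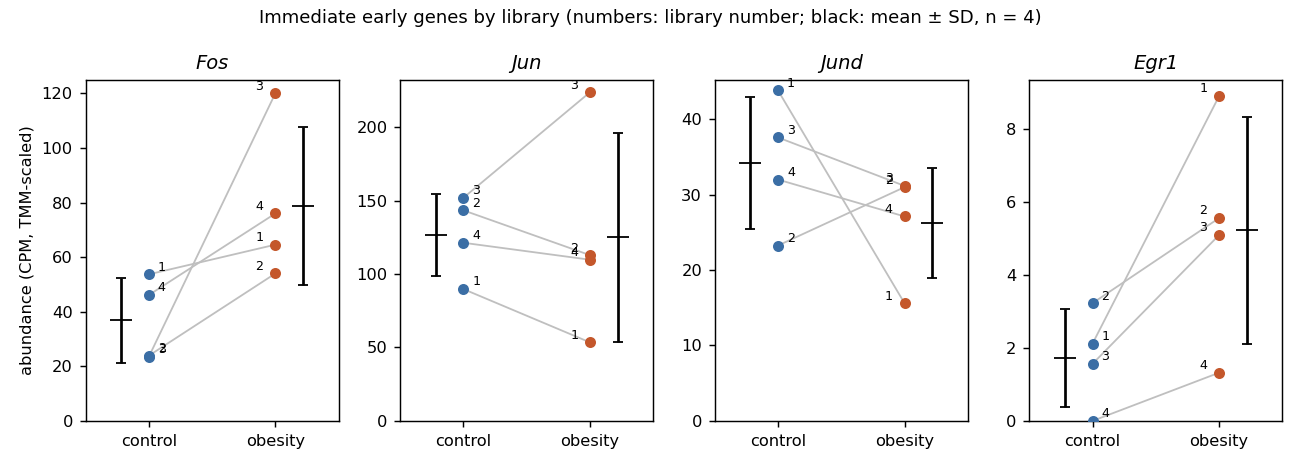
Level of Fos, Jun, Jund and Egr1 in each library, in CPM on axes that start at 0, with blue points for control, orange points for obesity, grey lines joining libraries of the same number and black bars for the mean ± SD of 4 libraries. Fos and Egr1 were higher in obesity in every numbered pair, Jun and Jund in 1 pair each, and obesity library 3 held the highest Fos (120.1 CPM) and Jun (223.7 CPM) values.

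Jun, the AP-1 subunit that binds Fos, was the most abundant of the 4 genes. Its reads over both sites were 127, 222, 194 and 163 in control 1 to 4 and 72, 142, 395 and 166 in obesity 1 to 4. The means were near each other, 126.5 ± 27.7 CPM in control and 124.9 ± 71.3 CPM in obesity (SD, n = 4 each), but the obesity libraries covered a wider range that enclosed the control one, from 53.4 CPM in library 1 to 223.7 CPM in library 3. The log2 difference was -0.01 (SE 0.33, adjusted p = 0.998, edgeR) and, with the block, -0.15 (adjusted p = 0.860). Jun was lower in obesity in 3 of 4 pairs. The coefficient of variation was 21.9% in control and 57.1% in obesity.

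The 2 Jun sites lie on the minus strand of chromosome 5, at 114012332 to 114012338 and at 114012366 to 114012384 (Rnor_6.0). Their peak positions are 46 bases apart, and the lower coordinate is the distal one. The distal site took 971 of 1481 reads (65.6%). Its share of the Jun reads was 24.4%, 50.5%, 85.6% and 49.1% in control 1 to 4, and 44.4%, 45.8%, 93.9% and 68.7% in obesity 1 to 4. The split moved widely between libraries of a group, and library 3 had the highest distal share in both groups, with 95% Wilson intervals of 79.9% to 89.8% and 91.1% to 95.9% (counting error only).

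Between groups the mean distal share stood at 52.4 ± 25.2% (SD, n = 4) in control against 63.2 ± 23.3% (SD, n = 4) in obesity, and the difference of 10.8 percentage points was within the spread (exact permutation test, 2-sided, p = 0.571). Within numbers 1 to 4 the difference was 20.04, -4.68, 8.36 and 19.6 percentage points, higher in obesity in 3 of 4 pairs. A paired exact permutation test, added after seeing the data, gave p = 0.250, where the smallest p that 4 pairs allow is 0.125. In the usage test across genes Jun had an adjusted p of 1.0 (edgeR diffSpliceDGE, Simes), where 1 of 8267 genes passed (0.0121%) and 152 had an unadjusted p under 0.05. Taken alone, the proximal Jun site had 96, 110, 28 and 83 reads in control and 40, 77, 24 and 52 in obesity. In CPM the obesity library was the lower of the pair for all 4 numbers, with a log2 difference of -0.72 (SE 0.48), and its adjusted p was 1.0 without and 0.688 with the block (edgeR). Of all sites, 1 passed without the block (0.00135%), and 2320 had an unadjusted p under 0.05. The share of all sites that were lower in 4 of 4 pairs was not counted. The distal site had a log2 difference of 0.30 (SE 0.65), and its sign turned in some settings that left out libraries.

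**Figure D2:**
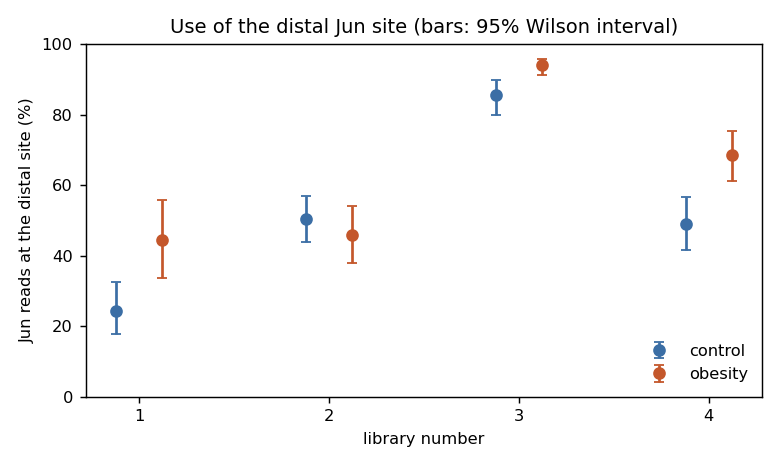
Share of Jun reads at the distal site, in percent, against library number, with blue points for control, orange points for obesity and bars for the 95% Wilson interval of each share. Library 3 stood highest in both groups (85.6% and 93.9%), and the distal share in obesity was above that in control for numbers 1, 3 and 4.

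Jund, a Jun protein that is held at a steady level in most tissues rather than sharply induced, had 62, 36, 48 and 43 reads in control 1 to 4 and 21, 39, 55 and 41 in obesity 1 to 4. The groups overlapped, and obesity library 1 was the lowest. Its level was 34.2 ± 8.73 CPM in control and 26.2 ± 7.32 CPM in obesity (SD, n = 4 each), a log2 difference of -0.38 (SE 0.35, adjusted p = 0.954, edgeR). The block left the estimate at -0.38 (adjusted p = 0.7502).

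The 4 sites assigned to Jund lie within 284 bases on chromosome 16 (Rnor_6.0) and fall on both strands. RefSeq places Jund on the minus strand of GRCr8. The minus strand sites at 20485025 to 20485029 and at 20485189 to 20485192 held 187 and 42 reads. The plus strand sites at 20485103 to 20485115 and at 20485306 to 20485315 held 36 and 80 reads, together 33.6% of the 345 reads. The plus strand sites carry the Jund symbol as the authors assigned it, but lie opposite to the strand that RefSeq gives for Jund. Their reads are counted in the Jund gene levels, percentile, shares of the summed level and correlations given here. These values are therefore not those of minus strand Jund transcripts alone. The origin of the plus strand reads was not tested.

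The minus strand took 67.7%, 69.4%, 81.2% and 69.8% of the Jund reads in control 1 to 4, and 52.4%, 76.9%, 45.5% and 65.9% in obesity 1 to 4. The means were 72.1 ± 6.20% and 60.2 ± 14.0% (SD, n = 4 each). This difference of -11.9 percentage points did not exceed the spread (exact permutation test, 2-sided, p = 0.200, and p = 0.375 when paired by number). The usage test gave Jund an adjusted p of 1.0 (edgeR diffSpliceDGE). The minus strand sites alone gave Jund a log2 difference of -0.62, which also did not pass.

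**Figure D3:**
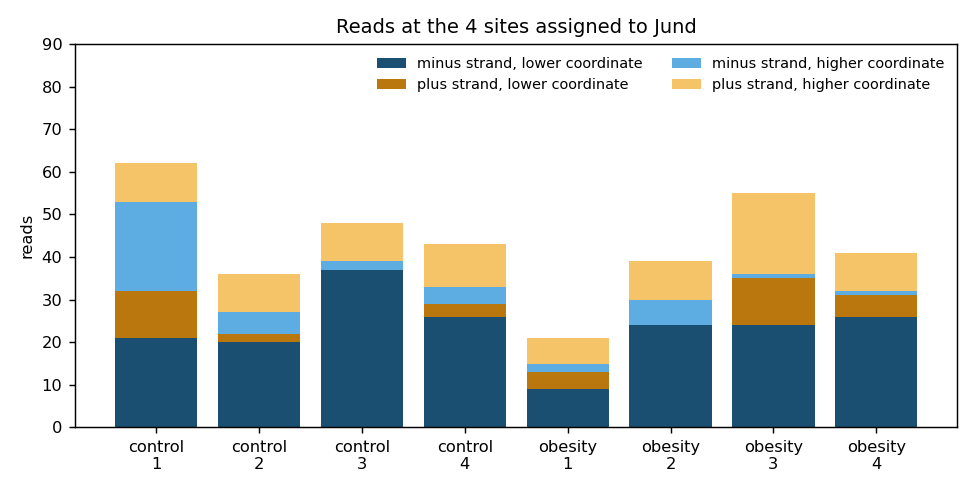
Reads at the 4 sites assigned to Jund in each library, stacked by site, with blue for the minus strand and orange for the plus strand. The lower minus strand site is the largest part in most libraries, control library 1 has 21 reads at the higher minus strand site against 1 to 6 in the others, and obesity library 3 has 30 plus strand reads of 55.

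By level the order in control was Jun, Fos, Jund and Egr1. In the control libraries Jun (89.7 to 151.8 CPM) did not overlap Fos (23.5 to 53.7 CPM), Fos and Jund (23.2 to 43.8 CPM) overlapped, and Egr1 lay apart at 0 to 3.23 CPM. In obesity the order was the same, but Fos (54.0 to 120.1 CPM) now overlapped Jun (53.4 to 223.7 CPM) and lay clear of Jund (15.6 to 31.1 CPM). Fos made up 18.5% of the summed level of the 4 genes in control and 33.5% in obesity, Jun 63.5% and 53.2%, Jund 17.1% and 11.2%, and Egr1 0.868% and 2.22%. The summed level was 189 to 214 CPM in control, and 142.5, 203.4, 380.0 and 214.1 CPM in obesity 1 to 4. Obesity library 3 was thus the highest and obesity library 1 the lowest of all 8. Among all genes of the table, Jun stood at the 88.3rd percentile by mean level, Fos at the 75.8th, Jund at the 60.1st and Egr1 at the 8.6th.

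Across the 8 libraries no relation between the 3 more abundant genes passed a test. For Fos and Jun, Pearson's r was -0.01 (permutation p = 0.977) and Spearman's rho -0.21 (permutation p = 0.619). For Fos and Jund these were -0.11 (permutation p = 0.814) and -0.33 (permutation p = 0.428), and for Jun and Jund 0.48 (permutation p = 0.214) and 0.26 (permutation p = 0.536). Over these 3 relations the smallest adjusted permutation p was 0.642 for r and 0.619 for rho. Without the 2 libraries farthest from the median of the first gene, r was -0.58 for Fos and Jun, 0.00 for Fos and Jund, and -0.43 for Jun and Jund. For Jun and Jund these were obesity libraries 1 and 3, and the positive r rested on obesity library 1, since it was -0.29 without that library alone and 0.55 without obesity library 3 alone. After centring by library number, r was 0.22, -0.17 and 0.53 in the same order.

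The genes whose profiles over the 8 libraries were most like each of the 3 were sought among 8333 genes with a mean of at least 10 CPM, by Pearson's r of log2 CPM, as a description only. Nearest to Fos were Csmd2 (r = 0.95), Zfand3 (0.94) and Fbxl20 (0.94). Csmd2, a large membrane protein gene, ran at 120.1 to 166.0 CPM in control and 174.0 to 251.4 CPM in obesity. It was picked for its likeness to Fos, which itself separated the groups, so these ranges are no separate evidence of a difference. Such a separation was seen for 226 of 12239 genes (1.85%). The adjusted p of Csmd2 was 0.905 without and 0.150 with the block (edgeR). Nearest to Jun were LOC108351007 (0.98), L1cam (0.97), which encodes a neuronal adhesion molecule, and Lin37 (0.97). Nearest to Jund were Laptm5 (0.98), Vamp4 (0.97) and Selplg (0.96). Laptm5 and Selplg are known from blood and microglial cells. The 3 of 6 listed microglia markers summed to 79.8 to 115.1 CPM in control and 34.1 to 94.5 CPM in obesity, with Cx3cr1, C1qa and Tmem119 not listed, and their part in the Jund values was not tested.

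Other genes of the wider pathway were grouped in 3 lists. Of 15 further inducible transcription factors 6 were listed, and Fosl1, Egr2, Egr4, Npas4, Atf3, Ier2, Klf10, Maff and Crem were not. None of the 6 passed in either direction with or without the block, 2 had a positive and 4 a negative difference, and the median log2 difference was -0.44 against 0.01 for all genes. The orphan receptor Nr4a2 had the smallest p of the list, with 10, 4, 8 and 3 reads in control and 0, 2, 4 and 0 in obesity (log2 difference -2.10, SE 1.16, adjusted p = 0.907, edgeR). Its relative Nr4a3 had 5, 5, 0 and 3 reads against 11, 4, 8 and 0 (log2 difference 0.78, SE 1.14). Both rest on few reads, and the groups overlapped for each.

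Of 16 inducible effectors and feedback regulators 9 were listed, and none passed in either direction with or without the block. Of these 5 were positive and 4 negative, with a median log2 difference of 0.07 against 0.01 for all genes. Homer1, a scaffold of the postsynaptic density with an activity-induced short form, had 53, 34, 37 and 53 reads in control and 53, 39, 79 and 76 in obesity (log2 difference 0.37, SE 0.32, adjusted p = 0.936, edgeR). The neurotrophin Bdnf had 6, 3, 8 and 17 reads against 0, 0, 13 and 0, with a log2 difference of -1.63 (SE 1.20) and an adjusted p of 0.926 without and 0.445 with the block (edgeR). Obesity library 3, the one with Bdnf reads in that group, was also the one with the most Fos and Jun reads. In control they did not go together, with the most Bdnf reads in library 4, Fos reads in library 1 and Jun reads in library 2. A relation of Bdnf to these genes was not tested. Dusp1, Dusp5, Btg2, Sik1, Ptgs2, Nptx2 and Nab1 had no row.

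All 16 kinases and factors upstream of these genes were listed, 11 with a positive and 5 with a negative difference. Their median log2 difference was 0.11, against 0.01 for all genes, and none passed with or without the block. The share of all genes with a positive difference was not counted, so the signs in these lists have no background beside them. Rps6ka2, a ribosomal S6 kinase of the MAP kinase pathway, had 45, 61, 36 and 48 reads in control and 87, 68, 86 and 83 in obesity. Its groups did not overlap in CPM (33.8 ± 4.85 against 55.5 ± 6.61, SD, n = 4 each), as for 226 of 12239 genes with obesity higher (1.85%). The log2 difference of Rps6ka2 was 0.71 (SE 0.28, adjusted p = 0.905, edgeR), and it had the smallest p of this list. Mapk3, the kinase ERK1, had 36, 50, 76 and 24 reads in control and 4, 32, 24 and 23 in obesity, with a log2 difference of -1.24 (SE 0.51, adjusted p = 0.905, edgeR). With the block these adjusted p-values were 0.289 for Rps6ka2 and 0.238 for Mapk3 (edgeR). Srf and Creb1, whose proteins bind the CArG box and the CRE, had log2 differences of 0.00 (SE 0.47) and -0.37 (SE 0.65). The Elk partners of SRF differed, with 0.74 (SE 0.34) for Elk1 and -0.08 (SE 0.31) for Elk4. For Elk1 the adjusted p was 0.905 without and 0.376 with the block (edgeR). Its groups overlapped, and obesity library 1 was the highest at 109.1 CPM.

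**Figure D4:**
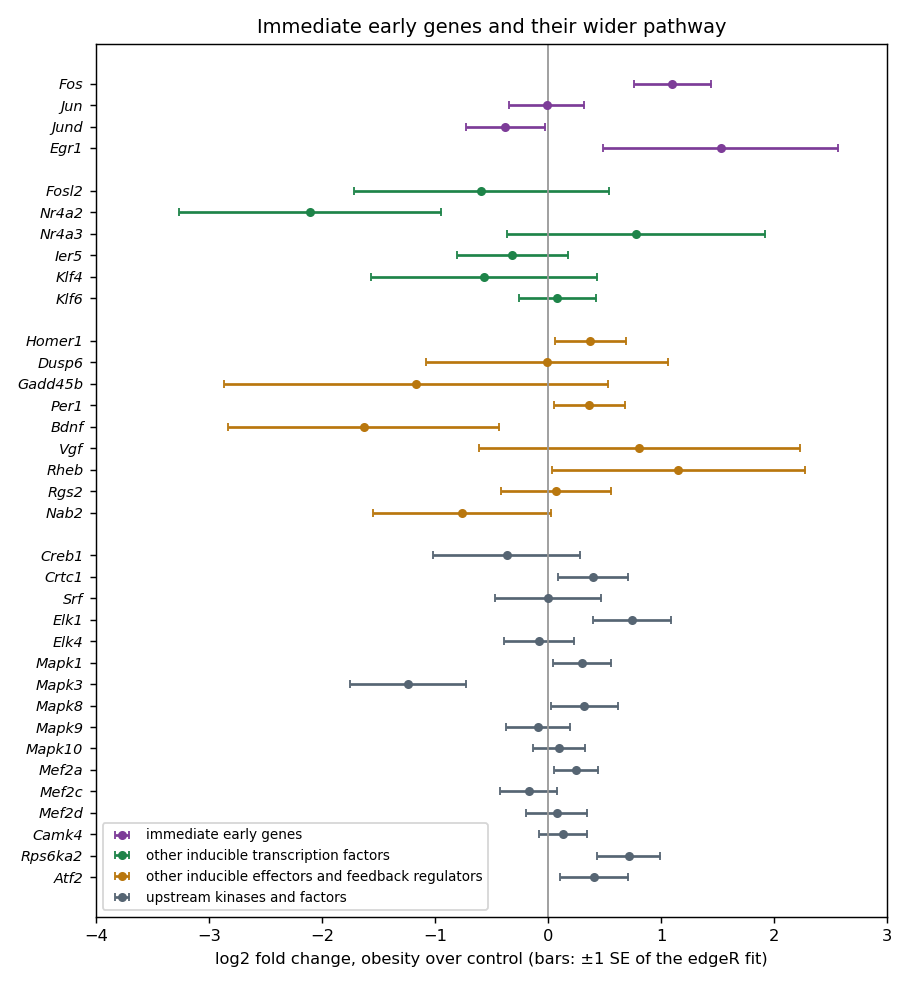
Log2 fold change of obesity over control for the 4 immediate early genes and the 31 listed genes of their wider pathway, with a grey line at 0. Bars are ±1 approximate SE, derived from the F statistic of the edgeR fit without the block. No gene shown passed the adjusted threshold, Fos lay at 1.10, and bars of ±1 SE are clear of 0 for Fos and for several other genes, among them Egr1, Jund, Rps6ka2 and Mapk3.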

How the data were processed

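WTTS-seq of rat hypothalamus was used, 8 libraries from 4 diet-induced obesity and 4 control rats as the labels group them. The paper linked to these libraries describes another exposure, so it guided no group or value. The authors deposited 1 table of unnormalized read counts, with a row for each polyadenylation site. The submitters' processing notes name Bowtie2 2.2.3 and the Rnor_6.0 assembly. Other steps are not given in the sources used here. A final line holding a column total was left out, as was the symbol field of 273 sites where no gene name stood. Sites with a gene held 85.9% of all reads, and the median site had 57 reads. Reads carry no molecular identifiers, so intervals cover counting error only. Priming within A-rich RNA was not filtered.

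Counts were summed per symbol over both strands and tested with the edgeR 4.0.16 quasi-likelihood F test (robust fit, TMM) in R 4.3.3, with limma 3.58.1, over 12239 genes and 73922 sites. The fit had no block. The SE of a log2 difference is its absolute size divided by the square root of the F statistic, so it is approximate, most of all for differences near 0. An adjusted p under 0.1 passed. Site usage was tested by diffSpliceDGE with Simes p-values. DESeq2 1.42.0, other scalings, filters and left-out libraries were alternatives. Shares were compared by exact permutation over 70 arrangements (SciPy 1.17.1). Code was tested on simulated data with far larger changes than that of Fos. That test does not show whether a change of the size seen for Fos would be found. The genes and lists were chosen with earlier results of these data known. The text names all immediate early genes, for each list the genes that passed or else those with the 2 smallest p, and for the 3 most abundant genes the 3 most similar profiles. Other named genes were chosen after their values were seen.

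Both groups carry the numbers 1 to 4. Deviations from group means correlated at 0.252 to 0.375 between same-numbered libraries and at -0.21 to 0.0821 between others, over 9397 genes. Since each of the 4 pairs was above 0.1, the numbers were taken as a pairing, although no label states what a number stands for. The reported tests are unpaired, and fits with the number as a block are given beside them where they bear on a result. Nor do the labels say that libraries come from separate RNA preparations, so p-values measure the spread between these libraries.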

Additional observations from a re-analysis of the deposited data

Results flagged for a closer look

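For Jund, control library 1 had 11.8 CPM at the higher minus strand site (chromosome 16, 20485189 to 20485192), far from the other control libraries at 1.47 to 2.88 CPM. Control library 3 had 81.2% of its Jund reads on the minus strand, against 67.7% to 69.8% in the other control libraries. Both stood out as a single library far from the rest of its group. Chance alone gives this in about 1 of 20 groups checked, and 24 were checked.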

How the results depend on the processing

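Egr1, Jund, the proximal Jun site and the minus strand Jund sites kept their direction, and stayed on the same side of the threshold, in all alternatives that gave a value. The Fos log2 difference stayed positive in all 19, from 0.71 to 1.39, with adjusted p from 0.295 to 1.0 without the replicate block. With it, Fos passed by DESeq2 (1.11) and when both libraries numbered 2 were left out (1.07), while the edgeR fit with the block and all libraries changed no call on a named gene. Leaving out 1 library gave 0.82 to 1.33. The low read counts of Egr1 and of the Jund sites limit what their values can show, and the filterByExpr setting removed Egr1. Fits with DESeq2 and the block, block fits without a numbered pair, and paired tests of shares were chosen after seeing the data.

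Genes past the threshold numbered 0 without the replicate block, 3 by the DESeq2 Wald test, 15 with the block, 147 with both, and with the block 1, 567, 2 and 0 without both libraries numbered 1, 2, 3 and 4. Leaving out 1 library gave 0 to 1. Sites numbered 1, 10 by DESeq2, 0 with filterByExpr or no robust fit, 4 with the block, 239 with both, and with the block 4, 366, 27 and 17 without numbers 1 to 4. Leaving out 1 library gave 0 to 1 sites and 0 to 10 genes with changed usage. Values that turned sign stayed short of the threshold, and the cause was not tested. Jun was 0.021 with the block without numbers 1, and -0.46 to 0.23 without 1 library. Its distal site was -0.0657 with the block without numbers 3, and -0.60 to 0.81. The lower plus strand Jund site was -0.99 and -0.0406 with the block without numbers 3 or 4, and -0.44 to 1.29. The higher one was -0.0193 with the block, -0.12 and -0.22 without numbers 2 or 3 as well, and -0.26 to 0.24. Correlations without 1 library ran from -0.68 to 0.18 (Fos and Jun, 0.22 after centring on the replicate block), -0.33 to 0.10 (Fos and Jund) and -0.29 to 0.76 (Jun and Jund).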
